A study of Mus musculus with 5 samples.

Results

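The basic helix-loop-helix (bHLH) genes examined here are 43 mouse genes for transcription factors that set the identity of nerve, muscle, mesoderm and blood cells, together with the Id genes. They were taken by symbol from a list that was chosen with earlier results of these data known. All 43 were found among the 21631 protein-coding genes of the RefSeq annotation of GRCm38.p6, the build also called mm10. They comprised 9 proneural and Atonal-related genes, 10 further neural genes, 3 achaete-scute genes, 5 muscle genes, 7 mesoderm genes, 3 blood genes, 4 Id genes and the pair Bhlhe40 and Bhlhe41. All lay on autosomes. Chromatin came from basal progenitor cells of the back skin epidermis of control mice at postnatal day 71. The mice carried the K14-RFP and K10-H2B-GFP reporters, driven by keratin promoters of the basal and the suprabasal layer, and the sorted cells were Sca1 positive, high for RFP and negative for GFP. Each mark was profiled in 2 libraries, beside 1 input library, all of the same genotype and age. The labels do not state the sex or number of the mice, or whether mice were pooled.

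A bHLH factor binds DNA as a dimer through a basic region next to the helix-loop-helix, and most tissue-restricted members pair with a broadly expressed E protein such as Tcf3, Tcf4 or Tcf12. The Id proteins have the helix-loop-helix but no basic region, so that they hold E proteins in dimers that do not bind DNA. H2AK119ub, ubiquitinated histone H2A, is the product of Polycomb repressive complex 1, and H3K27me3, trimethylated histone H3, is the product of Polycomb repressive complex 2. Both marks are known for lying over genes of developmental regulators in cells of other lineages. For each mark the values came from a single list of region positions, 33155 for H2AK119ub and 15102 for H3K27me3. Neither the depth of a library nor the spread between the 2 libraries of a mark can be read from them. The values below therefore describe the 2 lists and carry no test, and a gene outside all regions may still hold a mark below the unknown calling threshold.

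Promoters of 6 of the genes are shown first because they span the outcomes described below: the widest H3K27me3 regions among genes with a RefSeq promoter entry (Olig2, Olig3 and Neurog1; Olig1 has no entry), H2AK119ub on both sides of an unmarked start site (Id4), and neither mark (Neurod6 and Myf5). Each is the 250 bases before the RefSeq transcription start of GRCm38.p6, 5′ to 3′ on the gene's strand, with every CpG in capitals. Olig2 lies at chr16:91225300-91225549 (plus strand), Olig3 at chr10:19356289-19356538 (plus), Neurog1 at chr13:56252181-56252430 (minus), Id4 at chr13:48260866-48261115 (plus), Neurod6 at chr6:55681264-55681513 (minus) and Myf5 at chr10:107486135-107486384 (minus).
Olig2: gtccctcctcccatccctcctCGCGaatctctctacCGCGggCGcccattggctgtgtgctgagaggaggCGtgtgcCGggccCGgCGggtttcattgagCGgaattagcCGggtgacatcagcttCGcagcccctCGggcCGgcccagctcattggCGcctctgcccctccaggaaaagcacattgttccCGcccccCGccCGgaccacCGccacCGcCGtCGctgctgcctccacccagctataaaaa
Olig3: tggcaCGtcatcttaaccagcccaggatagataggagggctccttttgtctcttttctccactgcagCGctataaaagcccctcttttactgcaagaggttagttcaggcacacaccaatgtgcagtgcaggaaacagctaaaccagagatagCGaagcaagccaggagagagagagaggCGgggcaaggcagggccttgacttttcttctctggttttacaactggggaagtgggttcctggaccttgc
Neurog1: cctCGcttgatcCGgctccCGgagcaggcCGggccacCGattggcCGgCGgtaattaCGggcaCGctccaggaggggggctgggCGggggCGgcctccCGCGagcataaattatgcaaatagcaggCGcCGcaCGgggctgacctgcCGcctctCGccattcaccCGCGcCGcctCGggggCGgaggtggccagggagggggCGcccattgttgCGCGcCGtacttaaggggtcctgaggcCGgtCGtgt
Id4: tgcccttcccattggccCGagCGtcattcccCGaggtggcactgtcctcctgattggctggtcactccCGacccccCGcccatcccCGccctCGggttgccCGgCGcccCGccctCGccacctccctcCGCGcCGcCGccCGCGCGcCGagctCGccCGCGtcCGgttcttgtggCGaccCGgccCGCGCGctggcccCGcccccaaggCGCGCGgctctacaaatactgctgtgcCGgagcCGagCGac
Neurod6: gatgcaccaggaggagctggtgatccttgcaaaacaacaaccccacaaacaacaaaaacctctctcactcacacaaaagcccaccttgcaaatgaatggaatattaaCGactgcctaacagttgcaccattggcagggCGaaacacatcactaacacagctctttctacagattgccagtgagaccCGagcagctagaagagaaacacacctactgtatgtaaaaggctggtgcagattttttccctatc
Myf5: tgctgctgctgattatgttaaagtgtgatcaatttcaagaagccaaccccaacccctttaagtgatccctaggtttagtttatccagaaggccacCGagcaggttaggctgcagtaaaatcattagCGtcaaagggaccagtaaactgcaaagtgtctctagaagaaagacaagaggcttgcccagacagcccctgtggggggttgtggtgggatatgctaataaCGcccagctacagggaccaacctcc
The stretches of Olig2, Neurog1 and Id4 hold 22, 29 and 35 CpGs. Those of Olig3, Neurod6 and Myf5 hold 4, 3 and 3. The Myf5 stretch lies inside the annotated gene span, which extends beyond that start.

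Most of the lineage genes lay in chromatin with both marks. Over the gene body plus 1 kb on each side, 29 of the 43 genes (67.4%) met an H3K27me3 region, against 27.3% of all protein-coding genes, and 37 (86.0%) met an H2AK119ub region, against 60.6%. Both marks were found at 27 genes (62.8%, against 23.9%), H2AK119ub alone at 10 (against 36.7%), H3K27me3 alone at Ferd3l and Msc (against 3.44%), and neither at Neurod4, Neurod6, Myf5 and Myf6 (against 36%). The listed genes are short. Their median body was 2.88 kb, against 17.3 kb over all protein-coding genes, and among the 7742 genes with a body of at most 10 kb the background shares were lower, at 21% for H3K27me3, 50.5% for H2AK119ub and 18% for both. On the autosomes alone they were 24.9%, 60% and 21.6%. Of the 37 genes with H2AK119ub 27 also had H3K27me3, against 39.4% of all such genes, and of the 29 with H3K27me3 27 also had H2AK119ub, against 87.4%. The window of 10 kb changed the class of 1 gene, Myog, which gained H3K27me3. In that window 30 genes had H3K27me3 (against 37.4% of all genes), 37 H2AK119ub (67.9%), 28 both (33.2%), 9 H2AK119ub alone (34.7%), 2 H3K27me3 alone (4.23%) and 4 neither (27.9%).

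**Figure D1:**
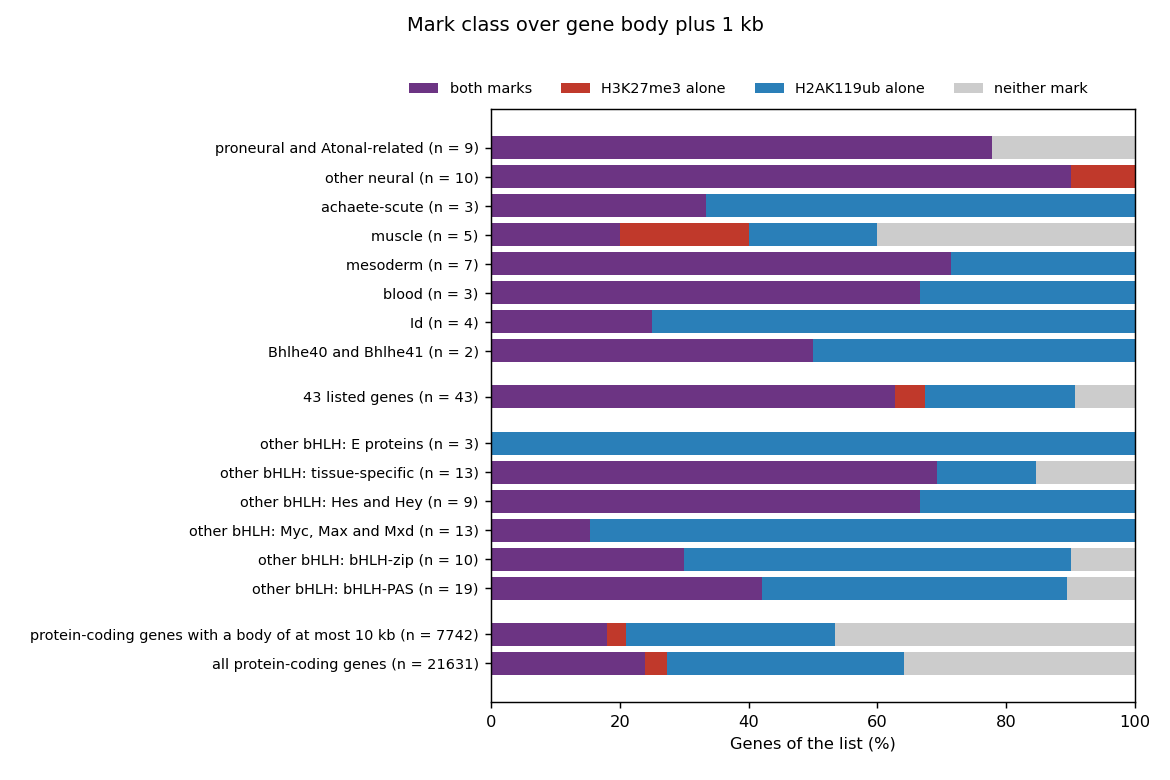
Percent of the genes in each list (x axis) that carry both marks, H3K27me3 alone, H2AK119ub alone or neither over the body plus 1 kb, for the lineages of the 43 genes, the other bHLH families and all protein-coding genes. Neural genes are marked by both in 16 of 19 cases (against 23.9% of all protein-coding genes), and the Id genes by H2AK119ub alone in 3 of 4 (against 36.7%).

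Where a mark was present it usually spanned the whole gene. H3K27me3 covered all of the body plus 1 kb at 23 of the 43 genes, against 5.64% of protein-coding genes, and H2AK119ub did so at 32, against 15.8%. Those background shares are for genes of any length, and short genes were covered whole more often. Among the 7742 genes with a body of at most 10 kb, H3K27me3 did so at 777 and H2AK119ub at 2120. With 10 kb on each side the counts among the 43 genes were 10 for H3K27me3 (against 2.93%) and 19 for H2AK119ub (against 6.59%). Among the same 7742 short genes they were 339 and 816. The genes covered by H3K27me3 over all of the wider window were Neurog1, Neurog2, Neurod2, Olig1, Olig2, Olig3, Bhlhe23, Ptf1a, Hand2 and Tcf21. Of these 10, 8 belong to the neural lists, which hold 19 of the 43 genes. Olig1 and Olig2 are counted separately here although they share a locus. Coverage was partial at Atoh8, Nhlh1, Ascl2, Mesp1, Tal2 and Id3 for H3K27me3, between 43.1% and 90.3% of the body plus 1 kb. For H2AK119ub it was partial at Atoh7, Ascl3, Tal2, Id4 and Bhlhe40, between 40.4% and 91.3%.

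**Figure D2:**
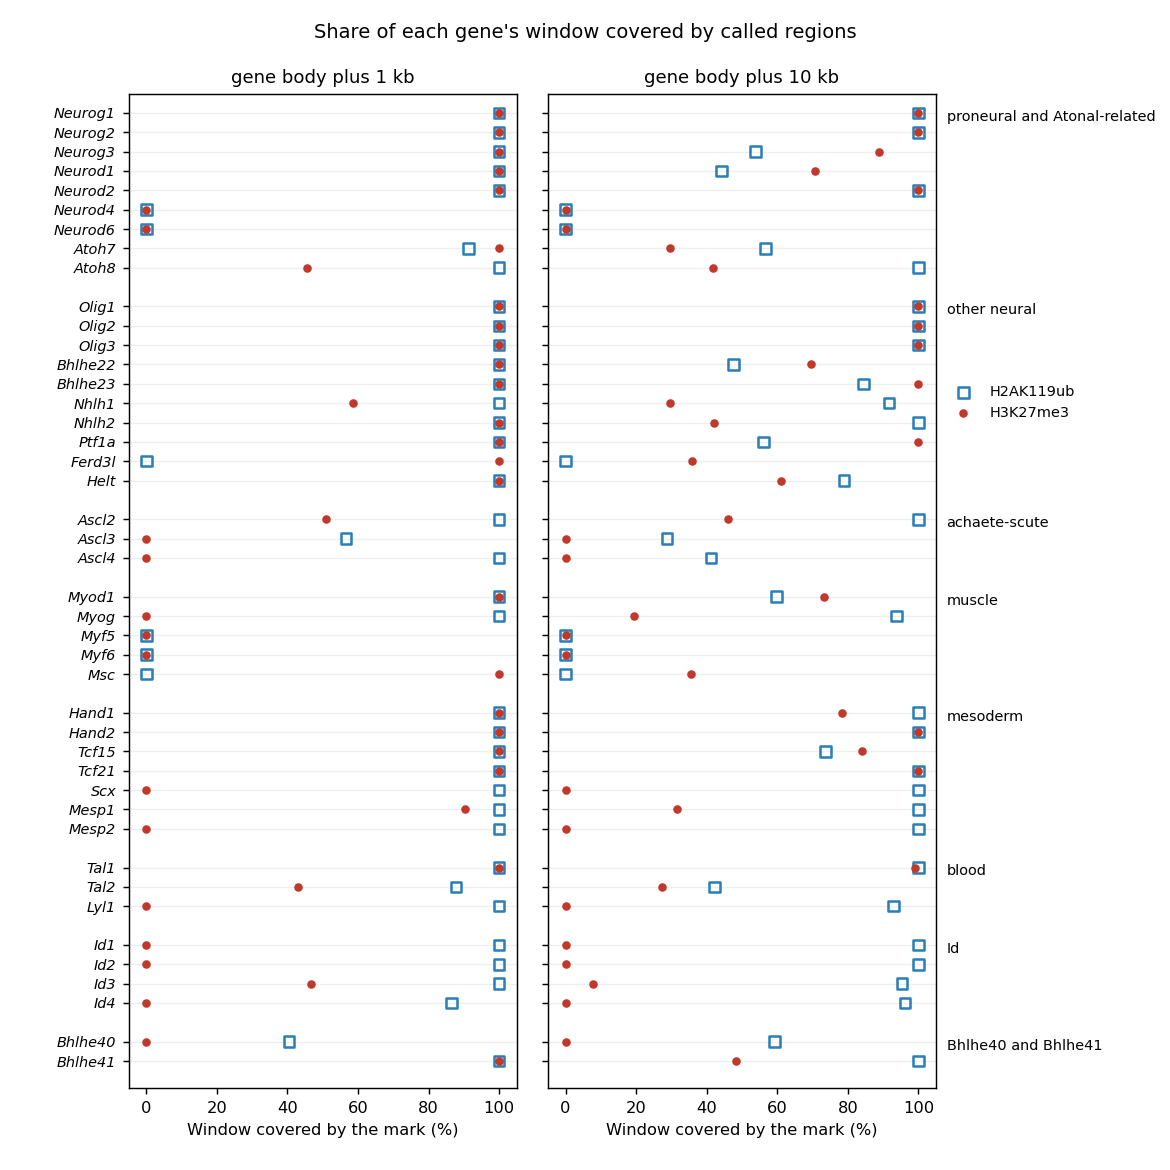
Percent of each gene's window covered by H2AK119ub (open squares) and H3K27me3 (filled circles), with 1 kb (left) and 10 kb (right) added to each side of the body. In the narrow window 32 genes sit at 100% for H2AK119ub and 23 for H3K27me3, whereas in the wide window H3K27me3 spreads over the whole range from 0 to 100%.

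Neurogenins and NeuroD factors, known for roles in neuronal fate and differentiation, were divided between genes with both marks and genes with neither. Neurog1 (chromosome 13, 56250478 to 56252180) had an H3K27me3 region of 74.9 kb inside an H2AK119ub region of 241 kb, the widest H2AK119ub region at any of the 43 genes, which also reached the chemokine gene Cxcl14. Neurog2 (chromosome 3, 127632733 to 127635636) had an H3K27me3 region of 47.3 kb and an H2AK119ub region of 35.6 kb. At Neurog3, which specifies the endocrine cells of the pancreas, these widths were 21.4 kb and 11.7 kb. These neurogenin genes were covered by both marks over all of the body plus 1 kb. Neurod1, known from pancreatic beta cells and neurons, had an H3K27me3 region of 17.0 kb around an H2AK119ub region of 10.6 kb. Neurod2, a factor of maturing neurons, had the reverse nesting, 46.6 kb of H3K27me3 inside 83.7 kb. In contrast, Neurod4 and Neurod6 had no region of either mark within 10 kb, as was the case for 27.9% of all protein-coding genes. The H2AK119ub region nearest to Neurod4 (chromosome 10, 130268152 to 130280254) was 1289 kb away, a distance reached or passed by 3.22% of protein-coding genes, and the nearest H3K27me3 region was 188 kb away (21.4% of genes are as far). Of the 26 other protein-coding genes within 500 kb of Neurod4, 20 were olfactory receptor (Olfr) genes. Neurod6 (chromosome 6, 55677818 to 55681263) was 212 kb from H2AK119ub and 220.2 kb from H3K27me3, with 7 other protein-coding genes and no olfactory receptor gene within 500 kb.

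Both Atonal-related genes carried both marks. In the whole list of 9 proneural and Atonal-related genes, 7 had both (against 23.9% of protein-coding genes) and 2 neither (against 36%). Atoh7, needed for retinal ganglion cells, had an H3K27me3 region of 6.39 kb and an H2AK119ub region of 18.3 kb that ended 0.697 kb beyond the upper end of the body. Atoh8, the longest gene of the set at 29.6 kb, was covered end to end by 90.4 kb of H2AK119ub. Its H3K27me3 lay in 2 regions of 4.91 kb and 15.8 kb, and the wider of these contained the transcription start.

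The Olig genes, which specify oligodendrocytes and ventral or dorsal neurons of the neural tube, had the 3 widest H3K27me3 regions among the 43 genes. Olig2 (chromosome 16, 91225550 to 91228677) had a 100.4 kb region, Olig1 (91269769 to 91271939) an 82.0 kb region, and Olig3 (chromosome 10, 19356539 to 19358604) a 79.6 kb region. Their H2AK119ub regions were narrower, at 45.1 kb, 26.5 kb and 47.2 kb, and each lay inside the H3K27me3 region. Olig2 and Olig1 are neighbours, with 41.1 kb between their bodies. H3K27me3 was interrupted there for 7.54 kb, from 91248249 to 91255783, and H2AK119ub for 8.21 kb, from 91247778 to 91255987. The marks thus stopped 0.471 kb apart on the Olig2 side, and on the Olig1 side they resumed at 91255784 and 91255988. At Olig3 the upper edges of the 2 marks differed by 0.424 kb.

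The other neural genes were all marked by H3K27me3, against 27.3% of protein-coding genes. Ptf1a, which acts in the cerebellum, the spinal cord and the exocrine pancreas, had an H3K27me3 region of 53.0 kb that enclosed 11.7 kb of H2AK119ub. Bhlhe22 and Bhlhe23, factors of retinal and other neurons, had H3K27me3 regions of 16.1 kb and 43.1 kb and H2AK119ub regions of 11.03 kb and 57.4 kb. Helt, a factor of midbrain GABAergic neurons, had H3K27me3 over 13.9 kb and H2AK119ub over 28.1 kb. Nhlh2, a hypothalamic factor, had 10.7 kb of H3K27me3 within 43.3 kb of H2AK119ub. Its relative Nhlh1 (chromosome 1, 172052292 to 172057596) had 5.97 kb within 23.2 kb. The H3K27me3 region of Nhlh1 ran from 172049595 to 172055567 and so left the RefSeq start at 172057596 outside, while H2AK119ub covered it. Of the 22 genes with both marks and a RefSeq promoter entry, Nhlh1 was the only one with H3K27me3 off its start. Ferd3l, a neural relative of the Twist genes (chromosome 12, 33928425 to 33929310) had a 7.49 kb H3K27me3 region and no H2AK119ub within 10 kb. Its nearest H2AK119ub region was 21.0 kb away, over Twist1, a mesenchymal bHLH gene separated from the Ferd3l body by 28.4 kb.

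**Figure D3:**
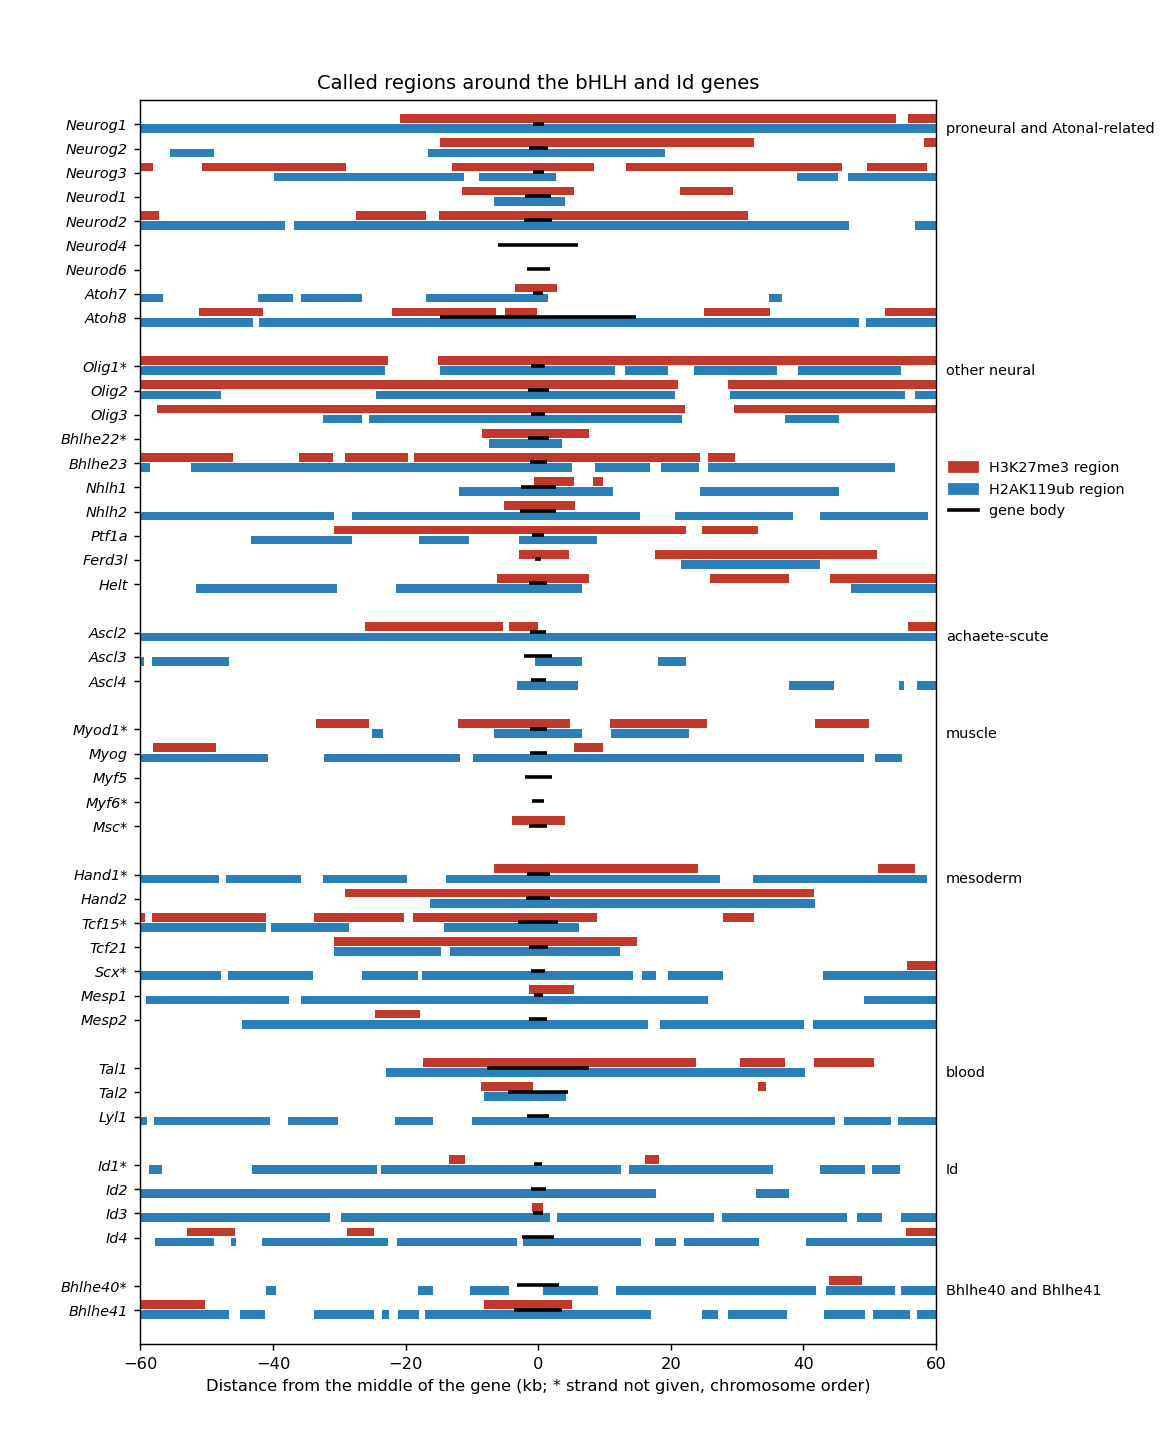
H3K27me3 regions (red, upper), H2AK119ub regions (blue, lower) and gene bodies (black) within 60 kb of the middle of each gene; genes with a known strand are drawn 5′ to 3′, and starred ones in chromosome order. Regions are cut at the edges of the plot. Neurod4, Neurod6, Myf5 and Myf6 have no region of either mark anywhere in the plot, and at Olig1, Olig2 and Olig3 the H3K27me3 region over the gene is wider than the H2AK119ub region over it.

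The 5 muscle regulators showed all 4 outcomes. H3K27me3 was found at 2 (40%, against 27.3% of all protein-coding genes) and H2AK119ub at 2 (40%, against 60.6%). Both marks were found at 1 (20%, against 23.9%) and neither at 2 (40%, against 36%). The shares with both and with neither were thus near those of all protein-coding genes. Myod1 (chromosome 7, 46376474 to 46379092), a determination factor able to turn other cells into muscle, had regions of 16.9 kb for H3K27me3 and 13.1 kb for H2AK119ub, and both marks covered the whole body plus 1 kb. Myog (chromosome 1, 134290004 to 134292548), which drives terminal differentiation, lay in 59.1 kb of H2AK119ub without H3K27me3. The nearest H3K27me3 region of Myog was 4.37 kb wide, began 4.20 kb beyond the upper end of the body and overlapped the neighbouring gene Ppfia4. Myf5 (chromosome 10, 107482908 to 107486927) and Myf6 (107492848 to 107494723) lie 5.92 kb apart and had neither mark. Myf5 was 313 kb from the nearest H2AK119ub region and 208 kb from the nearest H3K27me3 region, and Myf6 was 305 kb and 218 kb away. Since they share a locus, they count as 1 observation rather than 2. Of all protein-coding genes, 11.1% are as far from H2AK119ub as Myf5 and 19.9% as far from H3K27me3. Msc (chromosome 1, 14753344 to 14756089), encoding the repressor musculin, had an 8.07 kb H3K27me3 region and lay 243 kb from the nearest H2AK119ub region.

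Among mesoderm genes H2AK119ub was present at all 7 (against 60.6% of protein-coding genes) and H3K27me3 at 5 (against 27.3%). Hand1 and Hand2, factors of the heart and of limb or placental tissue, had H3K27me3 regions of 30.7 kb and 70.7 kb and H2AK119ub regions of 41.3 kb and 58.1 kb. At Hand2 the upper ends of the 2 marks nearly met, at 57364372 for H3K27me3 and 57364572 for H2AK119ub. Tcf21, a factor of visceral and cardiac mesenchyme, had 45.7 kb of H3K27me3 enclosing 25.7 kb of H2AK119ub, and Tcf15, a somite factor, had 27.8 kb enclosing 20.4 kb. Scx, the tendon factor scleraxis, had 31.8 kb of H2AK119ub and lay 54.7 kb from H3K27me3. Mesp1 and Mesp2, early mesoderm factors on chromosome 7, shared 1 H2AK119ub region of 61.3 kb from 79767348 to 79828664. Within it a 6.75 kb H3K27me3 region from 79787515 to 79794264 covered Mesp1 and stopped 16.5 kb short of Mesp2, which had H2AK119ub alone.

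The blood genes differed in the same way. Tal1, the factor that founds the blood lineages, lay in 41.1 kb of H3K27me3 inside 63.1 kb of H2AK119ub, and both of its RefSeq starts were inside both. Tal2, a midbrain and leukaemia-associated relative, had an H3K27me3 region of 7.94 kb and one of 12.3 kb for H2AK119ub, both around its start. Lyl1, which overlaps Tal1 in function, had 54.8 kb of H2AK119ub and was 78.4 kb from H3K27me3. The region at Lyl1 also reached Nfix and Trmt1. Of the achaete-scute genes, Ascl2, a trophoblast and intestinal stem cell factor, had 161 kb of H2AK119ub that also contained Th and Tspan32, with a 4.44 kb H3K27me3 region over its start and another of 20.8 kb beginning 4.08 kb beyond the body. Ascl3, of salivary gland ducts, and Ascl4 had H2AK119ub alone, in regions of 6.99 kb and 9.16 kb, and were 233 kb and 96.5 kb from H3K27me3. The H2AK119ub region of Ascl3 covered 56.5% of its body plus 1 kb and missed its start.

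The Id genes, whose products hold back bHLH dimers, had H2AK119ub at all 4 members (against 60.6% of protein-coding genes) and H3K27me3 at 1, a share near the 27.3% of protein-coding genes. The other 3 had no H3K27me3 within 10 kb. Id1 (chromosome 2, 152736251 to 152737410) lay in 36.1 kb of H2AK119ub and 10.5 kb from H3K27me3. Id2 (chromosome 12, 25093799 to 25096092) lay in 93.8 kb, which reached 74.9 kb upstream of its start and 18.95 kb downstream, and 175 kb from H3K27me3. Id3 (chromosome 4, 136143822 to 136145392) had 31.6 kb of H2AK119ub and the narrowest H3K27me3 region at any of the 43 genes, 1.67 kb from 136143713 to 136145379, almost exactly the gene body. At Id4 (chromosome 13, 48261116 to 48266028) 2 H2AK119ub regions of 18.1 kb and 17.8 kb left a gap of 0.932 kb, from 48260359 to 48261290. The start at 48261116 and the whole promoter stretch printed above lay in that gap. Among the 33 genes with a promoter entry, Id4 was the only one with H2AK119ub within 1 kb on both sides of its start but not on it.

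Bhlhe40 and Bhlhe41 encode related repressors that respond to stress and the circadian clock. Bhlhe41 had a 13.1 kb H3K27me3 region inside a 34.2 kb H2AK119ub region, and both covered its whole window. Bhlhe40 had H2AK119ub alone, over 40.4% of the body plus 1 kb. A gap of 5.24 kb, from 108659332 to 108664574, separated a 5.85 kb region before the lower end of the Bhlhe40 body from the 8.28 kb region over its upper end. The strand of Bhlhe40 is not given in the tables used, so the mark was not placed relative to its start.

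The 2 marks were nested at most doubly marked genes. Taking the widest region of each mark, H3K27me3 lay inside H2AK119ub at 11 of the 27 genes (40.7%) and H2AK119ub inside H3K27me3 at 9 (33.3%). At the other 7 the regions overlapped with an offset, and at none did they lie apart. Among the 4472 autosomal protein-coding genes with both marks, H3K27me3 lay inside H2AK119ub at 40.2%, H2AK119ub inside H3K27me3 at 16.6%, and the regions lay apart at 20.04%. Those autosomal genes were of any length, and a longer gene leaves more room for regions to lie apart. A comparison with short genes alone was not made. The 9 genes where H3K27me3 enclosed H2AK119ub were Neurog3, Neurod1, Olig1, Olig2, Olig3, Bhlhe22, Ptf1a, Tcf15 and Tcf21. Edges of the 2 marks within 1 kb of each other were found at 5 of the 27 genes (18.5%, against 19.1% of those autosomal genes), namely Olig1, Olig2, Olig3, Hand2 and Tal2, a share near that of autosomal genes with both marks.

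The median widest region was wider at these genes than at marked autosomal genes for both marks. The widest H3K27me3 region of a marked gene ranged from 1.67 kb to 100.4 kb with a median of 17.0 kb, against 11.4 kb over the 5142 autosomal protein-coding genes with the mark, and 20 of the 29 genes were above that value. For H2AK119ub the range was 6.99 kb to 241 kb with a median of 34.2 kb, against 20.05 kb over 12409 genes, with 26 of 37 above. Of the 30 H3K27me3 regions within 1 kb of the listed genes, 27 held no other protein-coding gene. The exceptions were the regions of Neurog2, which also touched Alpk1, of Neurod2, which also held Gm33099, and of Ptf1a, which also touched 4921504E06Rik. Of the 38 H2AK119ub regions, counted once for each listed gene, 26 held no other protein-coding gene. These shares were not compared with those of regions at other genes.

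Outside the genes both marks became less frequent with distance, though not at every step. At 0.5 kb beyond either end, 60.5% of the 86 flanking positions lay in H3K27me3 and 81.4% in H2AK119ub. At 10 kb the shares were 31.4% and 60.5%, and at 50 kb 20.9% and 47.7%. At 75 kb they were 15.1% and 36.0%, and at 100 kb 17.4% and 27.9%. Around autosomal protein-coding genes they changed less, from 12.5% and 37.8% at 0.5 kb to 9.70% and 31.4% at 100 kb. At 100 kb H2AK119ub was therefore no more frequent around the listed genes than around autosomal genes. H3K27me3 was still above the autosomal level there, at 15 of the 86 positions. Neighbouring listed genes such as Olig1 and Olig2 were counted separately.

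**Figure D4:**
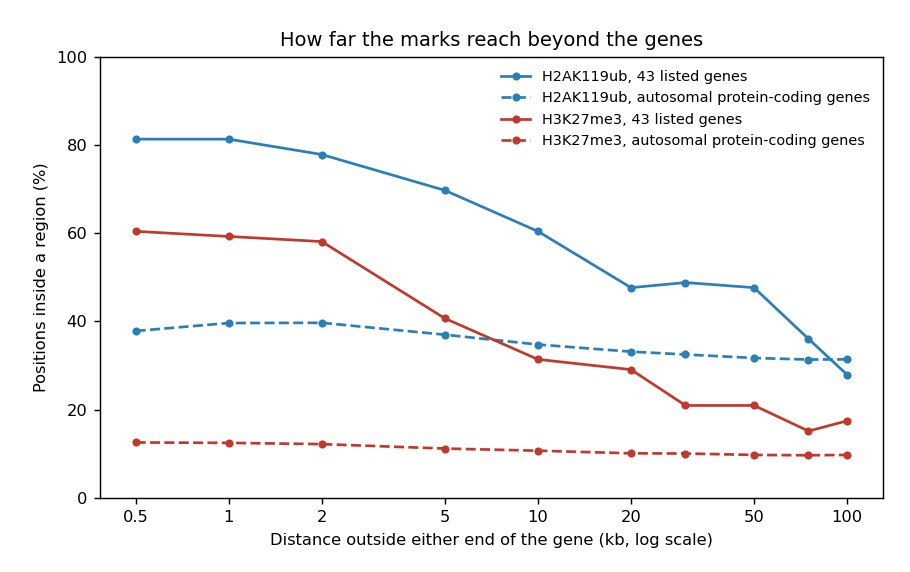
Percent of positions at a given distance outside either gene end (x axis, kb, log scale) that lie in a region, for the 43 listed genes (solid) and autosomal protein-coding genes (dashed). The solid lines start at 81.4% for H2AK119ub and 60.5% for H3K27me3 and at 100 kb lie below the dashed line for H2AK119ub and above it for H3K27me3.

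CpG content, a sequence feature not used to choose the genes, followed the marks only in part. It is given as the observed over expected number of CpGs in the 250 bases before the start, where a value near 1 means no depletion, for the 33 genes with a RefSeq promoter entry. The median was 0.651 over 22 genes with both marks, 0.389 over 7 with H2AK119ub alone and 0.236 over the 3 with neither, Neurod4, Neurod6 and Myf5. Over all protein-coding genes of these classes the medians were 0.536, 0.676 and 0.306. Of the genes with neither mark, Myf5 had a ratio of 0.202 and Neurod6 of 0.236, and the 2 starts of Neurod4 had 0.125 and 0.379, with a mean of 0.252. Medians use the mean of a gene's starts. CpG-poor promoters also occurred under wide H3K27me3, however: the promoter of Olig3 printed above had a ratio of 0.242 and that of Tcf21 0.293, against 0.821 at Olig2. The lowest ratios among genes with both marks, 0.0953, 0.105 and 0.184, were those of Nhlh1, Mesp1 and Nhlh2, whose H3K27me3 regions were narrow and, at Nhlh1, off the start. Narrow H3K27me3 also occurred at higher ratios, with 0.732 at Id3 (1.67 kb) and 0.671 at Ascl2 (4.44 kb). The highest value, 1.05, was that of Id4, in the gap between its H2AK119ub regions. The E-box, the bHLH binding motif CANNTG, reads the same on both strands and was present in 22 of the 33 promoter stretches (66.7%), as in 66.4% of those of 17268 protein-coding genes, and an E-box may contain a CpG.

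**Figure D5:**
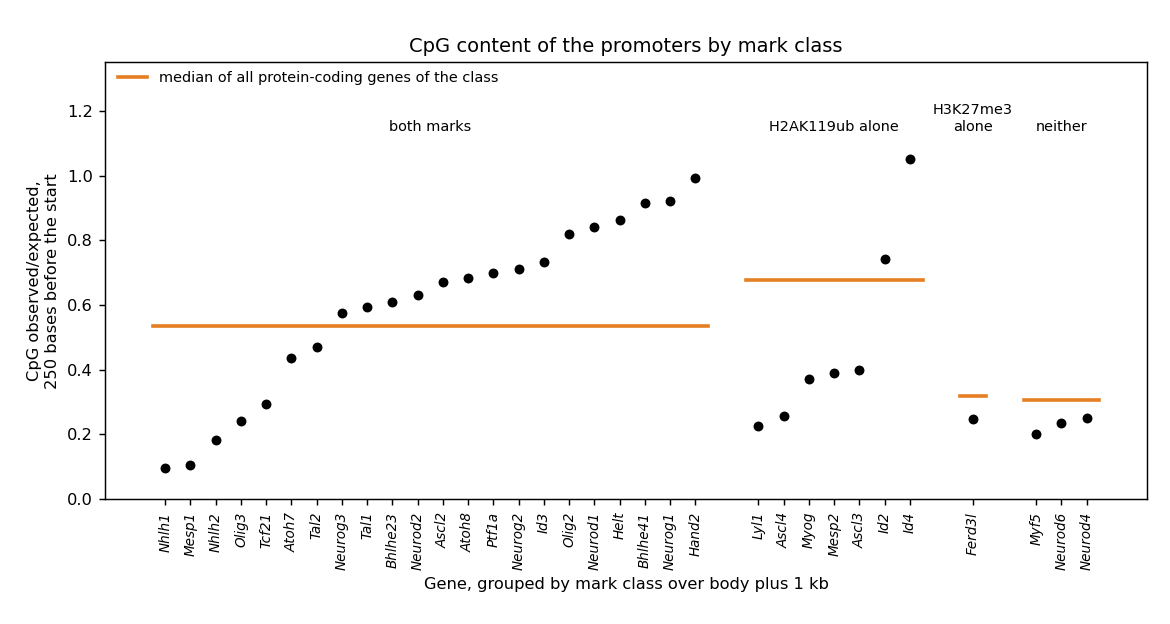
CpG observed over expected in the 250 bases before the start (y axis) for each gene with a promoter entry, grouped by mark class and sorted by value; a gene with 2 starts is drawn at their mean. Orange lines give the median of all protein-coding genes in the class, and Myf5, Neurod6 and the mean of the 2 Neurod4 starts lie below theirs, while 1 of those starts, at 0.379, is above it.

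Another 67 genes of the bHLH superfamily were examined by family over the same window. The partner genes Tcf3, Tcf4 and Tcf12 all had H2AK119ub and no H3K27me3 within 10 kb. Tcf3 lay mostly in H2AK119ub (84.4% of the body plus 1 kb), and Tcf12 was barely touched (0.182%). Of 13 further tissue-specific genes, 9 had both marks, with the widest H3K27me3 at Sohlh1 (43.2 kb), Twist1 (33.6 kb) and Bhlha9 (29.8 kb), 2 had H2AK119ub alone (Bhlha15 and Tcf23), and Msgn1 and Sohlh2 had neither. Both marks were found at 6 of 9 Hes and Hey genes, led by Hey2 (27.2 kb of H3K27me3), Heyl and Hes2, while Hes1, Hes6 and Hes7 had H2AK119ub alone. In the Myc, Max and Mxd family 2 of 13 had H3K27me3, Mlxipl (31.5 kb) and Mycn (10.997 kb), and the other 11 had H2AK119ub alone, widest at Mycl, Mlx and Mxd1. Of 10 bHLH-zipper genes 3 had both marks (the X-linked Tfe3, Tcfl5 and Srebf2), 6 had H2AK119ub alone, widest at Srebf1, Tfeb and Mitf, and Tfec had neither. Of 19 bHLH-PAS genes 8 had both marks, led by Sim2 (67.7 kb), Sim1 (55.8 kb) and Npas3 (46.7 kb), 9 had H2AK119ub alone, widest at Ncoa3, Epas1 and Arntl, and Arnt and Ahr had neither. Some of these wide regions lay mostly outside the named gene. H3K27me3 covered 7.21% of the body plus 1 kb at Sohlh1 and 2.08% at Srebf2, against 100% at Twist1 and Bhlha9. H2AK119ub covered 13.2% at Mxd1 and 4.79% at Ncoa3. In all, 28 of the 67 genes (41.8%) had H3K27me3, against 27.3% of all protein-coding genes, and 62 (92.5%) had H2AK119ub, against 60.6%. All 28 had both marks, against 23.9%. The H3K27me3 share of the bHLH-zipper genes, 30%, was near that of all protein-coding genes. That of the Myc, Max and Mxd family, 15.4%, was below it. The share with H3K27me3 among the 43 listed genes, 67.4%, was close to that of the tissue-specific (69.2%) and the Hes and Hey genes (66.7%). The other families had lower shares. For H2AK119ub the share of the listed genes, 86.0%, was no higher than the 92.5% of the other 67. These differences were not tested.

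Expression was not measured, so only the marks at genes of the cell types can be described. All 7 basal keratinocyte genes examined (Krt5, Krt14, Krt15, Trp63, Itga6, Itgb4 and Col17a1) had H2AK119ub and none had H3K27me3 over the body plus 1 kb, while 3 had H3K27me3 within 10 kb. Over all protein-coding genes, 60.6% had H2AK119ub and 27.3% H3K27me3, and 37.4% had H3K27me3 within 10 kb. H3K27me3 was found at 4 of 4 Merkel cell genes, 2 of 5 suprabasal, 1 of 6 melanocyte, 2 of 3 immune and 2 of 3 fibroblast genes. The counts for H2AK119ub were 4 of 4, 4 of 5, 5 of 6, 2 of 3 and 2 of 3, so this mark was not particular to the basal genes. Atoh1 and Mitf, used here as Merkel cell and melanocyte genes, are also among the 67 other bHLH genes. The share of other cells in the sort was not tested.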

How the data were processed

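Per the labels, chromatin was immunoprecipitated from sorted basal epidermal cells, sequencing gave single reads of 75 nt. The authors deposited positions of called regions in bp, as 1 file for each mark, and no scores. The submitters' processing notes name Bowtie2 2.3.3.1, SAMtools 1.9 and mm10. Not given in the sources used here: how regions were called, at what threshold, with which control and from single or pooled libraries. Depth is unknown.

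Starts were read as counted from 0. Gene bodies came from RefSeq (GRCm38.p6), and each was widened by 1 kb or 10 kb. A gene was called marked at an overlap of at least 1 bp. Promoters came from RefSeq, with 33 of 43 genes matched. Python 3.11.15, pandas 2.3.3 and NumPy 2.4.6 were used. Coverage was tested on simulated data (4000 windows, 0 wrong). The genes and lists were chosen with earlier results of these data known. All 43 genes are named. Of the other families the E proteins are all named, and elsewhere up to 3 genes with the widest H3K27me3, up to 3 with the widest H2AK119ub alone, and all with neither mark. For equal H3K27me3 coverage, printed promoters were ranked by region width, and Id4, Neurod6 and Myf5 were picked after their values were seen.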

Additional observations from a re-analysis of the deposited data

How the results depend on the processing

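The counts of marked genes varied little with the window (0 bp, 5 kb, 10 kb, either gene end, or 1 kb around the start for the 33 genes with a promoter entry), the overlap (500 bp or 50% of the window), regions of at least 3 kb, lists of equal size, joining of regions under 3 kb apart, the start convention, or neighbours within 100 kb taken as 1 locus. H3K27me3 was called at 26 to 30 of the 43 genes, at 22 of 33 by the start and at 28 of 40 loci. The number with neither mark was highest, at 6, with H2AK119ub cut to the widest regions. The median H3K27me3 coverage of 100% became 63.3% with 5 kb and 41.7% with 10 kb added, and that of H2AK119ub became 93.8% with 10 kb, since wider windows hold more flank. Of the counts by lineage, 10 moved by more than 1.5 times and 182 did not. Of those 10, 5 were with the start window, which drops 10 genes. No paired analysis was possible because each mark has 1 list for both libraries. For the same reason no replicate could be left out.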
